A study of Mus musculus with 8 samples.

Results

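The tumour necrosis factor (TNF) superfamily comprises the TNF-like ligands, their receptors and, as grouped here, genes first described as induced by TNF-α. Members were protein-coding genes named Tnf or with names beginning Tnfsf, Tnfrsf or Tnfaip, together with Lta, Ltb, Ltbr, Fas, Fasl, Cd40, Cd27, Ngfr, Edar, Eda2r and Relt. The rule found 52 members among the 48709 genes listed in the deposited tables, of which 22018 were protein-coding: 16 ligands, 28 receptors and 8 Tnfaip genes. They were followed by RNA sequencing of isolated pancreatic islets from C57BL/6 mice aged 1 year. The islets were labelled either β-Tead1-KO or Flox/Flox, here called Flox. Tead1 encodes a DNA-binding partner of YAP and TAZ, the coactivators of the Hippo pathway. Each genotype had 2 libraries, numbered 1 and 2, and each library was read on 2 lanes that were summed. The series' design text gives pools of 3 samples, but the descriptions carry 1 or 2 numbers a library, so how many mice stand behind each library is not certain. The Cre driver that would restrict the deletion to β-cells is not given in the sources used here, nor whether the Flox mice carried Cre.

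Exon reads numbered 22352518 and 26387280 in β-Tead1-KO libraries 1 and 2, and 21938244 and 14069569 in Flox libraries 1 and 2. Flox library 2 was the shallowest. Levels are given as CPM (exon reads divided by a library size that TMM corrects for composition) and as TPM, which also divides by exon length, where genes are compared with each other. Tead1 itself stood at 137 and 163 CPM in β-Tead1-KO libraries 1 and 2, against 101 and 124 CPM in Flox. Counted over the whole gene it was thus not reduced where the labels place its loss (log2 fold change 0.41, SE 0.19, adjusted p = 0.347), and a deleted exon cannot be seen in counts per gene. Directions below therefore refer to the libraries labelled β-Tead1-KO. In whole islets, fewer cells of a type and less RNA per cell cannot be told apart. With 2 libraries a group, p-values measure only the spread between these libraries.

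TNF superfamily ligands are mostly trimeric membrane or secreted proteins that cluster their receptors. Receptors with a death domain can start apoptosis, while many others recruit TRAF adaptors and activate NF-κB, a family of transcription factors. In islets the pathway is best known from β-cell damage by inflammatory cytokines, and A20, the product of Tnfaip3, is known as a brake on NF-κB in β-cells.

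Tnfrsf11a and Tnfrsf19 carried the largest fold changes of the family, so their promoters (250 bases before to 50 after each RefSeq start, GRCm38.p6) are shown, with the TEAD core motif GGAATG in capitals. The window of Tnfrsf11a is chr1:105780473-105780772, plus strand. The outer start of Tnfrsf19 is chr14:61046806-61047105 and its inner start chr14:61037938-61038237, both on the minus strand.
Tnfrsf11a: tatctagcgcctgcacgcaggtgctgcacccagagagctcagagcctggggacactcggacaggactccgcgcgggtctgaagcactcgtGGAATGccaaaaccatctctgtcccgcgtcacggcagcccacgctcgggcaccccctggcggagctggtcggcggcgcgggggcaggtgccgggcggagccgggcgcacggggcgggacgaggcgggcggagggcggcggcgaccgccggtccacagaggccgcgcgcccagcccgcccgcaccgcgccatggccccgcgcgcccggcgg
Tnfrsf19, outer start: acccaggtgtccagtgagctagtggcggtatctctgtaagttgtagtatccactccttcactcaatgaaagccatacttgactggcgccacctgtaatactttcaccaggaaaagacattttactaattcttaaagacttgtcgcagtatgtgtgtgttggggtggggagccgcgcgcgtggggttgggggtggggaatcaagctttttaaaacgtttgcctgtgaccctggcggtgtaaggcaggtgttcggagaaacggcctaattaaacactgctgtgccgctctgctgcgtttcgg
Tnfrsf19, inner start: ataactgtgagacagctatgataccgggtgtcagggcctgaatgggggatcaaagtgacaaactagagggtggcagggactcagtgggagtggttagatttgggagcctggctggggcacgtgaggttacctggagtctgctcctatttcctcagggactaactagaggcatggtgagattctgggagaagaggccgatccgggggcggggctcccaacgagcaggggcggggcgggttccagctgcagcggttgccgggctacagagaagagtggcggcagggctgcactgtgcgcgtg
Searched on both strands, the motif occurred 1 time in the Tnfrsf11a window, beginning at base 91, and 0 times in each Tnfrsf19 window. RefSeq promoters were found for 43 of the 52 members, 48 windows in all, and GGAATG occurred in 9 of these (18.8%), against 14.7% of 32851 mouse promoter windows. The NF-κB consensus known as the κB site occurred in 7 of the 48 windows (14.6%), against 8.46% of all windows, and in none of the 3 shown. A match is a run of letters and says nothing of binding.

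A member was counted as detected in a library at 10 or more exon reads. Of the 52 members, 28 were detected in all 4 libraries, 10 in 1 to 3 libraries and 14 in none. For ligands these counts were 5, 3 and 8 of 16, for receptors 17, 6 and 5 of 28, and for Tnfaip genes 6, 1 and 1 of 8. In β-Tead1-KO libraries 1 and 2, 37 and 34 members were detected, against 35 and 32 in Flox libraries 1 and 2. The members under the limit in every library were Fasl, Lta, Tnfsf4, Tnfsf8, Tnfsf11, Tnfsf14, Tnfsf15, Tnfsf18, Edar, Tnfrsf4, Tnfrsf8, Tnfrsf17, Tnfrsf25 and Tnfaip6. Just under it, Tnfsf8 reached 9 reads in Flox library 1, and just over it, Tnfaip8l2 had 10 and 3 reads in β-Tead1-KO against 10 and 10 in Flox. Tnfsf4 was at 0 in all libraries, and 3 reads, the limit that a count of 0 allows, correspond to 0.113 to 0.212 CPM across libraries.

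The most abundant members per length were Tnfrsf1a, the main TNF receptor, Tnfaip1, an adaptor of ubiquitin ligases, Tnfrsf21, a death-domain receptor, Tnfsf12 and Relt. Tnfrsf1a had 27.6 and 24.6 TPM in β-Tead1-KO and 26.6 and 30.7 TPM in Flox. Tnfaip1 had 31.3 and 27.8 TPM in β-Tead1-KO and 23.4 and 25.4 TPM in Flox. Tnfrsf21 had 24.2 and 19.3 TPM in β-Tead1-KO and 14.9 and 26.7 TPM in Flox. Over the 4 libraries, their means were 27.4, 27.0 and 21.3 TPM, followed by Tnfsf12 at 16.7 TPM and then by Relt. Neighbours in this order overlapped in their library values. A mean of at least 1 TPM was reached by 26 members and of at least 10 TPM by 9.

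**Figure D1:**
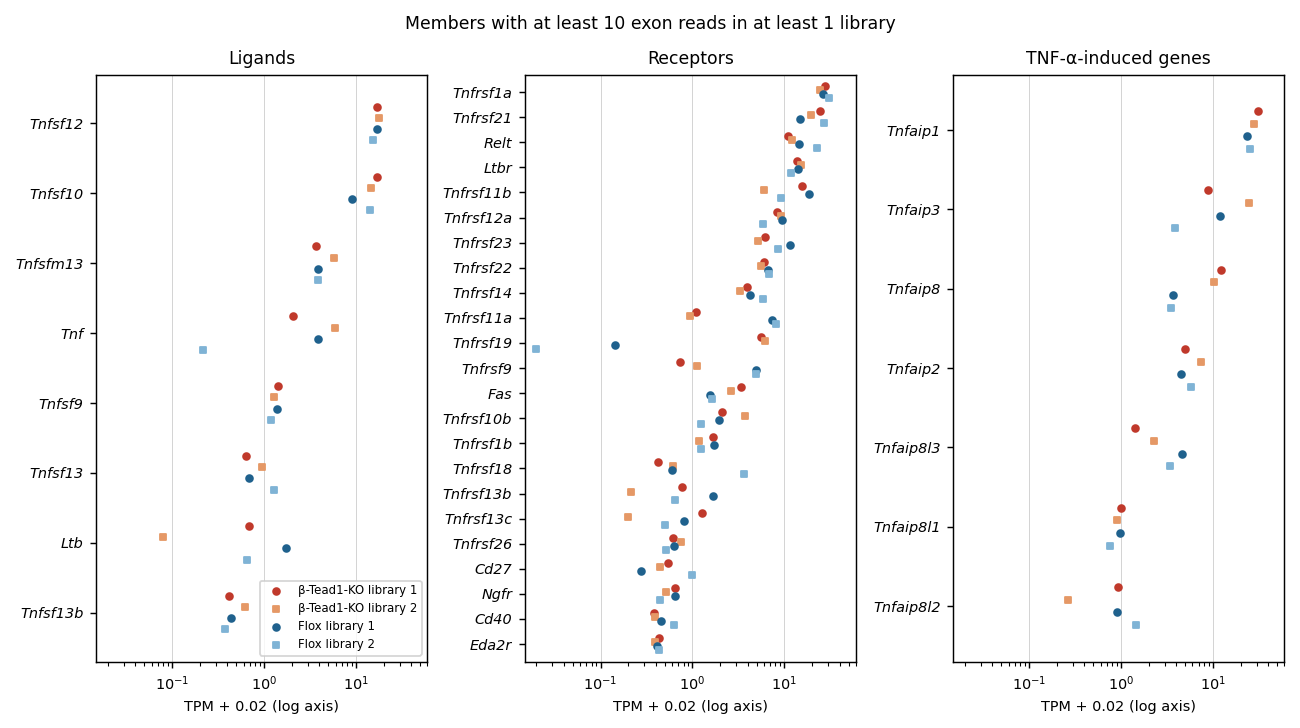
Level of each member with at least 10 exon reads in at least 1 library, in ligands (left), receptors (middle) and TNF-α-induced genes (right). The horizontal axis is TPM plus 0.02 on a log scale, and each point is 1 library. Most members lie close together across the 4 libraries, and Tnfrsf19 and Tnfrsf11a separate the genotypes.

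Genotypes were compared over all genes with edgeR's quasi-likelihood test and Benjamini-Hochberg adjustment. The test covered 15014 genes with enough reads, 36 members among them (7 ligands, 22 receptors and 7 Tnfaip genes). Of these 36, 4 members had an adjusted p below 0.05, against 504 of all tested genes, or 3.36%. Tnfrsf19 and Tnfaip8 were higher in β-Tead1-KO (1.76% of tested genes were called higher), and Tnfrsf11a and Tnfrsf9 were lower (1.60% were called lower). Tnfrsf19 entered the test through its β-Tead1-KO reads alone, so it could only be tested because it was high there. Log2 fold changes were positive for 18 tested members and negative for 18, with a median of -0.02, against -0.01 over all tested genes. Leaving out a library leaves 1 in that genotype, which is then assumed to vary like the pair of the other. With β-Tead1-KO library 1 left out 0.566% of tested genes were called, with library 2 of that genotype left out 0.431%, and 15.1% without Flox library 1 and 6.26% without Flox library 2. Calls lost or gained below stand beside these shares. For 29 of the 36 the log2 fold change lay within 1 of zero. Both β-Tead1-KO libraries lay above both Flox libraries for 5 tested members and below both for 10, whereas 48.0% of all tested genes had groups that did not overlap. The 5 include Tnfrsf19, and the 10 include Tnfaip8l2, which passed the low-count filter only through its Flox reads. DESeq2 called the same 4 members, of 39 with an adjusted p, against 6.91% of the genes to which it gave one.

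**Figure D2:**
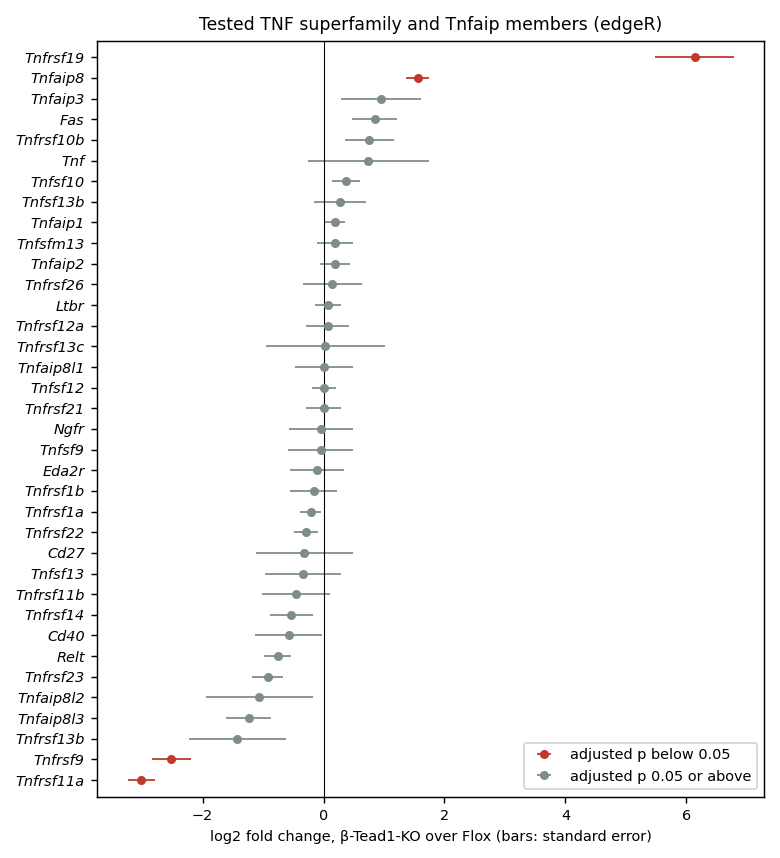
Log2 fold change, β-Tead1-KO over Flox, of the 36 tested members, in order of size, from edgeR. Bars are standard errors, and red points have an adjusted p below 0.05. Tnfrsf19 lies far to the right, Tnfrsf11a and Tnfrsf9 to the left, and most other members lie within 1 of zero.

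Tnfrsf11a encodes RANK, the receptor of RANKL, best known for driving osteoclast formation, and it was lower in β-Tead1-KO than in Flox. The gene (ENSMUSG00000026321) lies on chromosome 1, 105780718 to 105847981, plus strand (mm10, as are the gene positions below). It had 63 and 61 exon reads in β-Tead1-KO libraries, against 439 and 297 in Flox. In CPM these were 2.82 and 2.29 in β-Tead1-KO, against 20.4 and 20.9 in Flox. Both β-Tead1-KO libraries were far below both Flox libraries, and libraries of a genotype lay close together (2.56 ± 0.378 against 20.7 ± 0.396 CPM, SD, n = 2 each). The difference on the log2 scale was -3.01 (SE 0.22, adjusted p = 0.00469, edgeR). As a ratio of summed reads scaled for depth this was 0.123, with an exact 95% interval of 0.101 to 0.149 that covers counting error only. Junction reads, which cross spliced exons, numbered 9 and 12 in β-Tead1-KO and 76 and 74 in Flox (log2 fold change -3.34, adjusted p = 0.0067). Intron reads numbered 23 and 29 in β-Tead1-KO and 54 and 283 in Flox, with a log2 fold change of -2.56 that missed the threshold (adjusted p = 0.0866). Introns took 29.4% and 38.0% of gene reads in β-Tead1-KO libraries and 28.8% and 43.1% in Flox, so library 2 was the richer in both genotypes. Tnfrsf11a was the only member called with each library left out in turn, at log2 fold changes of -3.14 to -2.85.

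The other parts of the RANK axis showed no call. Tnfsf11, which encodes RANKL, had 8 and 0 reads in β-Tead1-KO and 4 and 2 in Flox, too few to test. Tnfrsf11b encodes osteoprotegerin, a soluble decoy that captures RANKL, and had 19.4 and 6.91 CPM in β-Tead1-KO and 24.4 and 11.3 CPM in Flox. In both genotypes library 1 was the higher, and the groups overlapped (log2 fold change -0.45, SE 0.56, adjusted p = 0.749). With 1 library left out its log2 fold change ranged between -1.34 and 0.23.

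Tnfrsf19 encodes TROY, a receptor known from the developing nervous system, skin and epithelial stem cells. The gene (ENSMUSG00000060548) lies on chromosome 14, 60963834 to 61046855, minus strand, so the outer start shown above falls at the end coordinate. It had 259 and 325 exon reads in β-Tead1-KO, against 6 and 0 in Flox. These were 11.6 and 12.2 CPM in β-Tead1-KO, against 0.279 and 0 CPM in Flox, and the gene passed the low-count filter only through the β-Tead1-KO libraries. The groups were far apart, with Flox near the counting limit. As a ratio of summed reads scaled for depth this was 71.0, with an exact 95% interval of 32.4 to 194 for counting error. The log2 fold change fitted by edgeR was 6.14 (SE 0.65, adjusted p = 0.0116) and rests on 6 Flox reads in all. Junction reads numbered 61 and 52 in β-Tead1-KO and 1 and 0 in Flox (log2 fold change 6.13, adjusted p = 0.00434). Intron reads numbered 65 and 286 in β-Tead1-KO and 6 and 3 in Flox (log2 fold change 4.35, adjusted p = 0.0424). Without β-Tead1-KO library 1 the adjusted p was 0.0501 and without library 2 it was 0.0596. Without Flox library 2 the log2 fold change was 5.39. Without Flox library 1 the Flox side is at 0 reads, and the β-Tead1-KO mean of 11.9 CPM was at least 56.3-fold higher than the level of 3 reads in Flox library 2.

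Tnfrsf9 encodes CD137, a co-stimulatory receptor of activated T cells that is also found on other cells. The gene (ENSMUSG00000028965) lies on chromosome 4, 150914562 to 150946102, plus strand. It had 0.851 and 1.24 CPM in β-Tead1-KO, against 6.27 and 5.78 CPM in Flox, or 19 and 33 against 135 and 82 reads. Both β-Tead1-KO libraries were below both Flox libraries (log2 fold change -2.51, SE 0.33, adjusted p = 0.0204, edgeR). Only 19.3% of its exon reads were counted as unique, and on unique reads alone, 6 and 3 in β-Tead1-KO against 29 and 14 in Flox, the log2 fold change was -2.64 with an adjusted p of 0.0791. The gene also overlaps Camta1, a transcription factor gene on the other strand that had 12.2 and 13.9 CPM in β-Tead1-KO and 13.6 and 21.0 CPM in Flox (adjusted p = 0.513). Use of strand in counting is not given in the sources used here, so reads of the pair cannot be told apart with certainty. Junction reads numbered 5 and 6 in β-Tead1-KO and 28 and 12 in Flox (-2.23, adjusted p = 0.0639), and intron reads 9 and 15 in β-Tead1-KO and 10 and 26 in Flox (-0.76, adjusted p = 0.833). Without β-Tead1-KO library 1 or 2 the adjusted p was 0.157 and 0.122.

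Tnfaip8, which encodes an anti-apoptotic protein of the TIPE family, was the only Tnfaip gene called. The gene (ENSMUSG00000062210) lies on chromosome 18, 49979427 to 50107173, plus strand, and overlaps the transcript C030005K06Rik on the other strand, which had 47 reads in all libraries together. It had 55.7 and 43.6 CPM in β-Tead1-KO, against 17.9 and 15.8 CPM in Flox, with no overlap between the groups. edgeR gave a log2 fold change of 1.56 (SE 0.20, adjusted p = 0.0186). Junction reads numbered 69 and 64 in β-Tead1-KO and 44 and 14 in Flox (log2 fold change 0.84, adjusted p = 0.298). Intron reads numbered 193 and 451 in β-Tead1-KO and 66 and 525 in Flox (log2 fold change 0.15, adjusted p = 0.971), so neither class passed the threshold. Without β-Tead1-KO library 1 or 2 the adjusted p was 0.122 and 0.0772.

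**Figure D3:**
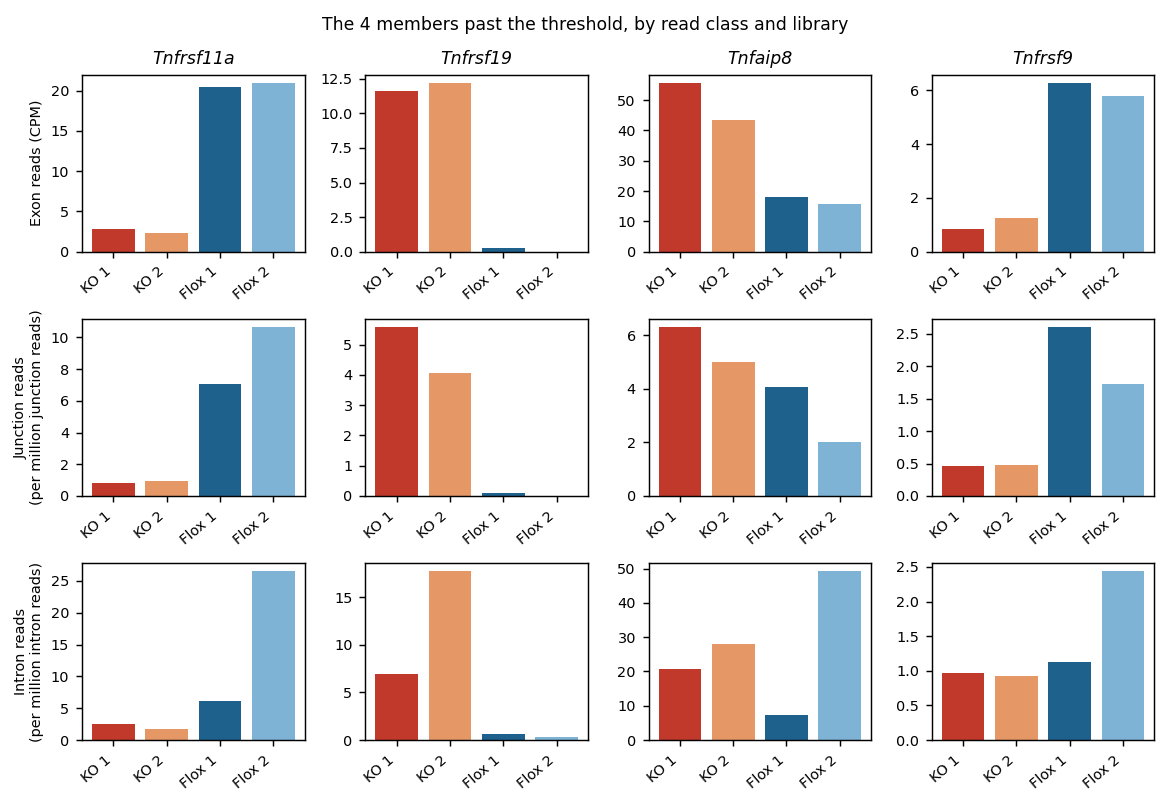
Exon reads (top row, CPM), junction reads (middle, CPM of junction reads) and intron reads (bottom, CPM of intron reads) of the 4 called members in each library, with β-Tead1-KO libraries in red and orange and Flox libraries in blue. Tnfrsf11a is low and Tnfrsf19 high in both β-Tead1-KO libraries in exon and junction reads, whereas the intron reads of Tnfaip8 are highest in β-Tead1-KO library 2 and Flox library 2.

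Among the other receptors, none passed the threshold. Relt, a receptor of lymphoid tissues, had 15.6 and 16.6 CPM in β-Tead1-KO, against 22.3 and 32.2 CPM in Flox, with both β-Tead1-KO libraries lower (log2 fold change -0.76, SE 0.23, adjusted p = 0.167). Against Flox library 2 alone, the higher of the pair, its log2 fold change was -0.99 (adjusted p = 0.00874, in the fit that called 15.1% of genes). Tnfrsf1a had 31.5 and 26.4 CPM in β-Tead1-KO and 32.3 and 34.8 CPM in Flox (log2 fold change -0.21, SE 0.17, adjusted p = 0.611), and Tnfrsf1b, the other TNF receptor, overlapped between groups (-0.17, SE 0.39). Ltbr, the lymphotoxin β receptor, gave 0.07 (SE 0.21, adjusted p = 0.902) and Tnfrsf21 gave 0.00 (SE 0.29). Of the death receptors, Fas had 2.69 and 1.95 CPM in β-Tead1-KO and 1.30 and 1.27 CPM in Flox (0.84, SE 0.38, adjusted p = 0.348). Tnfrsf10b, the receptor of TRAIL, had 2.91 and 4.84 CPM in β-Tead1-KO and 2.83 and 1.69 CPM in Flox (0.76, SE 0.41, adjusted p = 0.441). Tnfrsf12a, the receptor of Tnfsf12, gave 0.07 (SE 0.35). Cd40, Ngfr and Eda2r had at most 24 reads in any library, and their log2 fold changes of -0.58, -0.04 and -0.11 lay about 1 SE or less from zero.

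Of 2 more members named after their values were seen, Tnfrsf23, one of the mouse decoy receptors of TRAIL, had 8.96 and 7.21 CPM in β-Tead1-KO and 17.9 and 12.6 CPM in Flox (log2 fold change -0.92, adjusted p = 0.142). It was called with the replicate block (-0.91, adjusted p = 0.0417) and without Flox library 2 (-1.15, adjusted p = 0.0175). Only 27.7% of its reads were unique, and on unique reads alone its log2 fold change was -0.58 (adjusted p = 0.474, edgeR). On junction reads it was -0.57 (adjusted p = 0.421), and on intron reads the sign changed (0.35, adjusted p = 0.909). Tnfaip8l3, a relative of Tnfaip8, had 1.39 and 2.06 CPM in β-Tead1-KO and 4.83 and 3.31 CPM in Flox (-1.24, SE 0.37, adjusted p = 0.168), the opposite sign to Tnfaip8. Tnfaip2, a gene first found in TNF-treated endothelium, had 10.9 and 15.2 CPM in β-Tead1-KO and 10.4 and 12.5 CPM in Flox (0.19, SE 0.24, adjusted p = 0.762), and Tnfaip1 gave 0.20 (SE 0.17, adjusted p = 0.625).

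Of the ligands, 0 of 7 tested passed in edgeR, DESeq2 or limma-voom, and 0 had an unadjusted p below 0.05. Tnfsf10, the apoptosis ligand TRAIL, had 39.3 and 31.5 CPM in β-Tead1-KO and 22.4 and 32.4 CPM in Flox, where the groups overlapped (0.37, SE 0.24, adjusted p = 0.512). Tnfsf12, or TWEAK, had 11.2 and 11.1 CPM in β-Tead1-KO and 12.0 and 10.2 CPM in Flox (0.00, SE 0.20), but only 17.0% of its reads were unique, and the gene overlaps Tnfsfm13 on the same strand, which in turn overlaps Tnfsf13. Tnfsf13, or APRIL, had 10 and 17 reads in β-Tead1-KO and 11 and 13 in Flox, and Tnfsf13b, or BAFF, gave 0.28 (SE 0.43). Fasl had at most 4 reads in any library.

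Tnf and Tnfaip3 varied more within genotypes than between them. Tnf had 33 and 107 reads in β-Tead1-KO and 64 and 2 in Flox, or 1.48 and 4.02 CPM against 2.97 and 0.141 CPM (log2 fold change 0.74, SE 1.00, adjusted p = 0.773). Tnfaip3 had 28.3 and 73.9 CPM in β-Tead1-KO and 40.7 and 12.1 CPM in Flox (0.95, SE 0.66, adjusted p = 0.544). In both genes β-Tead1-KO library 2 was highest and Flox library 2 lowest. Against Flox library 2 alone, where Tnf had 2 reads, the log2 fold changes were 4.25 for Tnf (adjusted p = 0.00874) and 2.09 for Tnfaip3 (adjusted p = 0.00389), in the fit that called 15.1% of genes. Against Flox library 1 alone they were -0.10 and 0.33, and neither was called. The same extremes were found in 4 of 11 tested NF-κB subunits and inhibitors and in 9 of 21 tested NF-κB targets. Among the other lists described below, 5 of 22 TNF receptor adaptors, 3 of 21 NF-κB kinases and ubiquitin enzymes and 3 of 11 endothelial markers showed them. So did 1 of 11 macrophage, 1 of 12 mesenchymal and 1 of 9 ductal markers, and 0 genes of the remaining lists. The share over all tested genes is not given here. From the 2 NF-κB lists named first, 2 such genes, picked after their values were seen, are given as examples. Nfkbiz, an inhibitor-like NF-κB regulator, had 130 and 163 CPM in β-Tead1-KO and 108 and 38.6 CPM in Flox. Ier3, an early response gene, had 9.90 and 17.0 CPM in β-Tead1-KO and 9.71 and 2.54 CPM in Flox.

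The wider pathway was described through 4 lists of 86 entries, of which 85 were matched and 75 tested. In edgeR 1 gene was called and 7 had an unadjusted p below 0.05. The share of all tested genes with such a p is not given here. Counts of unadjusted p for these lists, the ligands and the cell markers therefore show neither an excess nor a lack. Of 22 TNF receptor adaptors, 0 were called by edgeR, DESeq2 or limma-voom and 2 had an unadjusted p below 0.05 (median log2 fold change 0.16). Of 21 NF-κB kinases and ubiquitin enzymes, 0 were called by these tools and 1 had an unadjusted p below 0.05 (median -0.04). Of 11 NF-κB subunits and inhibitors, 0 were called by edgeR and 1 by DESeq2, 1 had an unadjusted p below 0.05, and 10 had a positive fold change (median 0.14). Of 21 tested NF-κB targets, 16 had a positive fold change, as had 48.8% of all tested genes, 3 had an unadjusted p below 0.05 and 1 was called, Cx3cl1. DESeq2 called 3 (Cx3cl1, Il6 and Plau). Il6 had 22 and 94 reads in β-Tead1-KO and 4 and 0 in Flox. It passed the low-count filter of edgeR only through the β-Tead1-KO libraries, and it is among the 16 targets with a positive fold change. The median log2 fold change of the targets, 0.69, was 1.30 without Flox library 1 and 0.40 without Flox library 2. Their summed level was 317 and 346 CPM in β-Tead1-KO and 326 and 251 CPM in Flox. Cx3cl1, which encodes the chemokine fractalkine, had 52.7 and 45.4 CPM in β-Tead1-KO, against 18.4 and 24.1 CPM in Flox (log2 fold change 1.21, SE 0.20, adjusted p = 0.0395). Without β-Tead1-KO library 1 or 2 its adjusted p was 0.237 and 0.190. On junction reads it was not called (1.00, adjusted p = 0.181), whereas Plau, which encodes urokinase, was (2.22, adjusted p = 0.0402).

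Some lymphocyte members, Tnfrsf13b, Tnfrsf13c and Ltb, grouped after their values were seen, differed between libraries 1 and 2 of each genotype. Tnfrsf13b (TACI), which binds APRIL and BAFF, had 0.941 and 0.225 CPM in β-Tead1-KO and 2.18 and 0.776 CPM in Flox (log2 fold change -1.42, SE 0.81, adjusted p = 0.462). Tnfrsf13c, the BAFF receptor, had 1.12 and 0.150 CPM in β-Tead1-KO and 0.743 and 0.423 CPM in Flox. Ltb, a ligand of lymphocytes, had 0.448 and 0.0375 CPM in β-Tead1-KO and 1.21 and 0.423 CPM in Flox, and was too low to test. All 3 were higher in library 1 than in library 2 of the same genotype, and Tnfrsf13b and Ltb were also lower in β-Tead1-KO than in the Flox library of the same number. Cd40, another B cell receptor, had 0.538 and 0.525 CPM in β-Tead1-KO and 0.697 and 0.917 CPM in Flox and did not show that order. Neither did Cd27, with 0.538 and 0.413 CPM in β-Tead1-KO and 0.279 and 0.987 CPM in Flox. Tnfrsf18 was higher in library 2 of both genotypes, at 0.269 and 0.375 CPM in β-Tead1-KO and 0.418 and 2.40 CPM in Flox. Tnfrsf9 was higher in library 2 of β-Tead1-KO only. Among members under the detection limit, Fasl and Tnfsf8 were higher in library 1 of both genotypes, and Tnfrsf4 was not in Flox. The B cell marker Ms4a1 was higher in library 1 than in library 2 of each genotype. It had 7.22 and 0.338 CPM in β-Tead1-KO and 6.64 and 0.635 CPM in Flox. Its level in β-Tead1-KO library 1 was thus not below that in Flox library 1. Not every lymphocyte marker kept the order of Ms4a1. Cd4 had 1.21 and 0.0751 CPM in β-Tead1-KO but 0.789 and 1.06 CPM in Flox. Cd8a, at 0.186 and 0.212 CPM, and Ncr1, at 0 and 0.0705 CPM, were also higher in library 2 of Flox. Over the 14 T, NK and B cell markers the summed level was 30.2 and 2.74 CPM in β-Tead1-KO and 35.2 and 10.8 CPM in Flox, 0 of 10 tested were called in edgeR, DESeq2 or limma-voom, and 0 had an unadjusted p below 0.05. The only marker at 0 in a library was Ncr1, in Flox library 1. The part of lymphocytes in these levels was not tested.

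**Figure D4:**
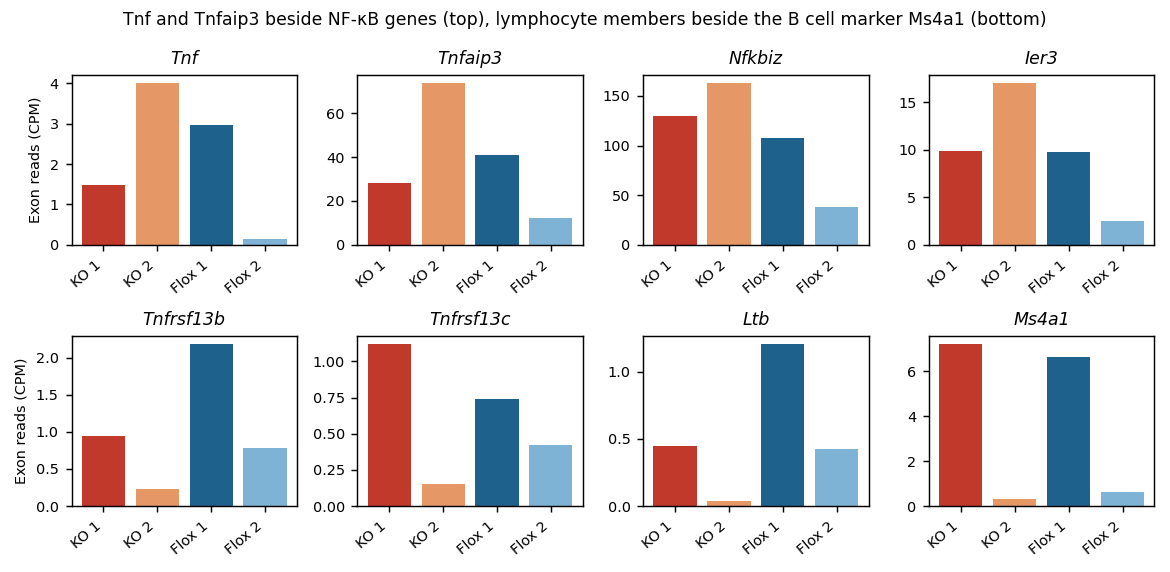
CPM per library, with β-Tead1-KO libraries left of Flox, for Tnf, Tnfaip3, Nfkbiz and Ier3 (top) and for Tnfrsf13b, Tnfrsf13c, Ltb and the B cell marker Ms4a1 (bottom). In the top row Flox library 2 is lowest and β-Tead1-KO library 2 highest, and in the bottom row library 1 exceeds library 2 within each genotype.

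Some markers of other cells differed between the genotypes. Summed levels of 12 mesenchymal markers were 342 and 310 CPM in β-Tead1-KO, against 272 and 217 CPM in Flox (2 of 12 called higher), and of 7 matched erythroid markers 317 and 235 CPM against 121 and 52.6 CPM (1 of 5 tested called higher). Those of 10 α-cell and δ-cell markers were 10385 and 8353 CPM in β-Tead1-KO, against 19389 and 15934 CPM in Flox (2 of 10 called lower). The 12 β-cell markers summed to 213606 and 186181 CPM in β-Tead1-KO and 221307 and 224674 CPM in Flox (1 of 12 called lower). Ins1 and Ins2 made up most of that sum, with 17.0% and 15.2% of exon reads in β-Tead1-KO and 18.3% and 20.4% in Flox. Of the 12 β-cell markers, 2 had a positive fold change (median log2 fold change -0.60). The 12 Schwann and neural markers summed to 41.6 and 48.2 CPM against 68.6 and 79.4 CPM. The 8 tested among them held 0 calls in edgeR, 2 with an unadjusted p below 0.05 and 1 DESeq2 call. Macrophage markers summed to 142 and 127 CPM in β-Tead1-KO and 103 and 109 CPM in Flox, endothelial ones to 679 and 685 CPM against 613 and 600 CPM, and ductal ones to 623 and 594 CPM against 629 and 448 CPM. Most of the macrophage sum in β-Tead1-KO was C1qa, at 84.3 and 78.3 CPM against 38.3 and 49.3 CPM in Flox. Lyz2 went the other way, at 9.19 and 4.17 CPM against 21.9 and 16.8 CPM. Of 11 tested macrophage markers, 7 had a positive fold change. Acinar markers were 754 and 6014 CPM in β-Tead1-KO and 1499 and 5704 CPM in Flox, higher in library 2 of each genotype. These last 4 lists held 0 calls in edgeR, with 2, 2, 1 and 0 unadjusted p below 0.05 in the order named, and 2, 1, 0 and 0 DESeq2 calls. Over all genes, edgeR called 3.36% of those tested and DESeq2 6.91% of those to which it gave an adjusted p. Of the lists with calls, DESeq2 called 5 mesenchymal, 3 erythroid, 5 α-cell and δ-cell and 6 β-cell markers, and 5, 5, 7 and 6 had an unadjusted p below 0.05. The part of these cells in the calls of Tnfrsf11a, Tnfrsf19, Tnfrsf9 and Tnfaip8 was not tested.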

How the data were processed

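Islet RNA of 2 genotypes was analysed in 4 libraries (2 β-Tead1-KO, 2 Flox), each read on 2 lanes; a lane pair differed by 1.07 to 1.20 times sampling noise (chi-square per degree of freedom) and was summed and counted as 1 replicate. Per the file headers, the authors deposited raw read counts for each gene in separate exon, junction and intron classes. Per the submitters' processing notes, mm10 was the build. The aligner, counter, annotation release and strand setting were not given in the sources used here. The deposited TPM and RPKM values were not used: TPM was computed from summed exon reads and exon length.

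Genes were filtered with filterByExpr (minimum count 10, minimum total 15), scaled by TMM and compared in edgeR 4.0.16 (R 4.3.3) by its quasi-likelihood test, two-sided, with Benjamini-Hochberg adjustment over 15014 genes and a threshold of 0.05. Fold changes are β-Tead1-KO over Flox, and SE comes from the fold change and F statistic. DESeq2 1.42.0 and limma 3.58.1 (voom) served as alternatives, and scripts were tested on simulated data. Total counts set the precision: 3 reads were taken as the limit of a 0. Intervals and limits cover counting error only, as reads carry no molecular identifiers.

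Members and gene lists were chosen with earlier results of these data known. Named genes were the called members, a core set of ligands and receptors, the 5 highest by mean TPM, the 5 largest absolute fold changes and the called genes of each pathway list; exceptions are stated. Promoters are from RefSeq.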

Additional observations from a re-analysis of the deposited data

How the results depend on the processing

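With 2 libraries a genotype the number of calls turned on single libraries. Over all genes 504 were called, against 1078 with DESeq2, 1157 with the replicate block, 108 on intron reads, and 67 to 2359 with 1 library left out. Of the members 4 were called, against 2 on junction reads (Tnfrsf11a, Tnfrsf19), 1 on intron reads (Tnfrsf19) and 1 to 8 with 1 library left out. Without β-Tead1-KO library 1 or 2 Tnfrsf11a alone was called, whereas without Flox library 1 Relt, Tnf, Tnfaip3 and Tnfrsf18 joined the 4. Of 75 tested pathway genes 1 was called. DESeq2 called 4 of 83, beside 1078 of 20880 genes with a p-value. On unique reads 2 of 75 were called, beside 680 of 14143 genes, and on lane 1 2 of 71, beside 523 of 13966. With the replicate block 4 of 75 were called, beside 1157 of 15014 genes, and on intron reads 0 of 66. On junction reads the 1 call of 69 was Plau in place of Cx3cl1. The cause was not tested. Only 3.39% of the exon reads of Tnfrsf18 were unique, and it overlaps Gm16008 on the other strand. Its 34 reads in Flox library 2 included 0 unique reads, and it had 0 junction reads there. Junction reads, intron reads and edgeR's legacy mode were chosen after seeing the data.

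The library numbers do not pair the samples by design. Same-numbered libraries deviated together (r = 0.39 over genes). With the replicate block 5 of 36 members were called, Tnfrsf23 added, beside 1157 of 15014 genes.

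Of 390 values for 26 named members under alternatives, 340 kept direction and side of the threshold, 12 fell short of it, 3 newly passed it and 35 changed sign, all of genes not called. These log2 fold changes were 0.0035 (DESeq2) and 0.00068 (replicate block) for Ngfr. On intron reads they were 0.34 for Relt, -0.48 for Tnfaip1 and -0.19 for Tnfsf12. On junction reads they were -0.0021 for Tnfrsf12a, -0.11 for Tnfrsf21 and -0.067 for Tnfsf12. Lane 2 gave -0.18 for Tnfrsf12a and -0.041 for Tnfsf12, and lane 1 gave 0.22 for Tnfrsf1b and -0.012 for Tnfrsf21. The strict filter gave -0.0087 for Tnfrsf21 and -0.0020 for Tnfsf12, unique reads -0.0061 for Tnfrsf21, and limma-voom -0.57 for Tnfrsf13c and -0.0056 for Tnfsf12. With 1 library left out the ranges were -0.21 to 0.036 for Eda2r, -0.10 to 0.29 for Ltbr, -0.31 to 0.38 for Ngfr, -0.13 to 4.25 for Tnf, -0.054 to 0.44 for Tnfaip2 and -1.34 to 0.23 for Tnfrsf11b. They were -0.26 to 0.54 for Tnfrsf12a, -1.93 to 0.91 for Tnfrsf13c, -0.46 to 0.18 for Tnfrsf1b, -0.31 to 0.42 for Tnfrsf21, -0.11 to 0.14 for Tnfsf12 and -0.73 to 0.10 for Tnfsf13.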
